A study of Papio anubis with 24 samples.

Results

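MicroRNAs (miRNAs) were compared between induced endometriotic lesions and the matched eutopic endometrium of 8 baboons (Papio anubis). These are 16 of the 24 small RNA libraries of the series, in which the other 8 come from animals with spontaneous disease. In every animal used here endometriosis had been induced experimentally, by placing menstrual tissue in the peritoneal cavity, and both tissues were taken at necropsy, 15 months later. The animal code in the labels pairs each lesion with 1 eutopic endometrium, the lining of the uterus of the same diseased animal, so that the control tissue also comes from an animal with endometriosis and not from a healthy one. Both tissues are whole pieces without any sorting of cells. All miRNAs that reached 2 CPM (the count of a miRNA relative to the total of its library) in at least 2 of the 16 libraries were taken, which gave 507 of the 2656 mature miRNAs in the table.

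A miRNA is cut from a hairpin, and either the 5p or the 3p arm can be loaded into the silencing complex, where its seed pairs with messenger RNAs and lowers their translation and stability. Many miRNAs are made mainly in 1 kind of cell, such as the miR-200 family in epithelium, miR-143 and miR-145 in smooth muscle, and miR-451a in maturing red cells, whereas others, such as miR-21, miR-210 or miR-29, follow the state of a cell. An endometriotic lesion contains endometrial glands and stroma outside the uterus, together with vessels, infiltrating leukocytes, fibrous tissue and whatever tissue of the host it grew on. In bulk tissue, a lower level of a miRNA because fewer cells make it and a lower level because each cell holds less of it cannot be told apart.

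The libraries held 2592999 to 7287883 counts (median 5070999.5) in the 8 eutopic endometria and 4311377 to 7573913 (median 6802387.5) in the 8 lesions, and 657 to 751 and 608 to 732 miRNAs were detected, respectively. The limit that 3 counts set, which covers only the error of counting, lay between 0.301 and 1.02 CPM. The libraries of PA7539 stood apart. Its eutopic endometrium had the lowest total and the highest TMM factor, edgeR's scaling factor for library composition (1.94, against 1.19 to 1.68 in the other 7), and its lesion had the lowest factor (0.413, against 0.539 to 0.983). The standard deviation of the within-animal log2 differences was 2.57 in PA7539 and 1.13 to 1.86 in the other animals. Values without PA7539 are therefore given beside the results that it moves.

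A few abundant miRNAs filled the libraries to a different degree in both tissues. The muscle-enriched miR-143-3p held 17.2% to 71.7% of the counts of a lesion and 4.88% to 12.3% of those of a eutopic endometrium. Its share was higher in the lesion of all 8 animals, on average by 32.4 percentage points (adjusted p = 0.0195 over the 5 shares tested, exact sign-flip permutation, two-sided), and the raw p = 0.0078125 is the smallest that 8 pairs allow. The share of miR-10b-5p, encoded among the HOXD genes, was lower in all 8 lesions, on average by 13.8 points, with the same p. Shares of miR-10a-5p, miR-26a-5p and miR-27b-3p differed by −2.30, −0.25 and 0.16 points and did not pass (adjusted p = 0.326, 0.680 and 0.674, same test). With library totals alone, the median log2 fold change of the 507 miRNAs was −1.10, and with TMM factors it was −0.14. All CPM below refer to the TMM-scaled library total, which miR-143-3p alone can exceed, and the direction of a modest rise is relative to this scaling.

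In the lesions 105 miRNAs were increased (20.7% of those tested) and 117 were decreased (23.1%) compared with the eutopic endometrium, together 43.8%, at an adjusted p under 0.05. This p came from the quasi-likelihood test of edgeR, in which the animal was a block, with Benjamini-Hochberg adjustment over all miRNAs tested, and is called the edgeR adjusted p below. With library totals 33 were higher and 294 lower. Of the miRNAs tested, 79 were higher and 74 lower in the lesion of all 8 animals. The 8 lesions and the 8 eutopic endometria did not overlap for 43 miRNAs, of which 30 were increased and 13 decreased. Without PA7539 there were 109 increased and 98 decreased miRNAs. Calls were made at all levels of expression, as the plot of fold change against level shows.

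**Figure D1:**
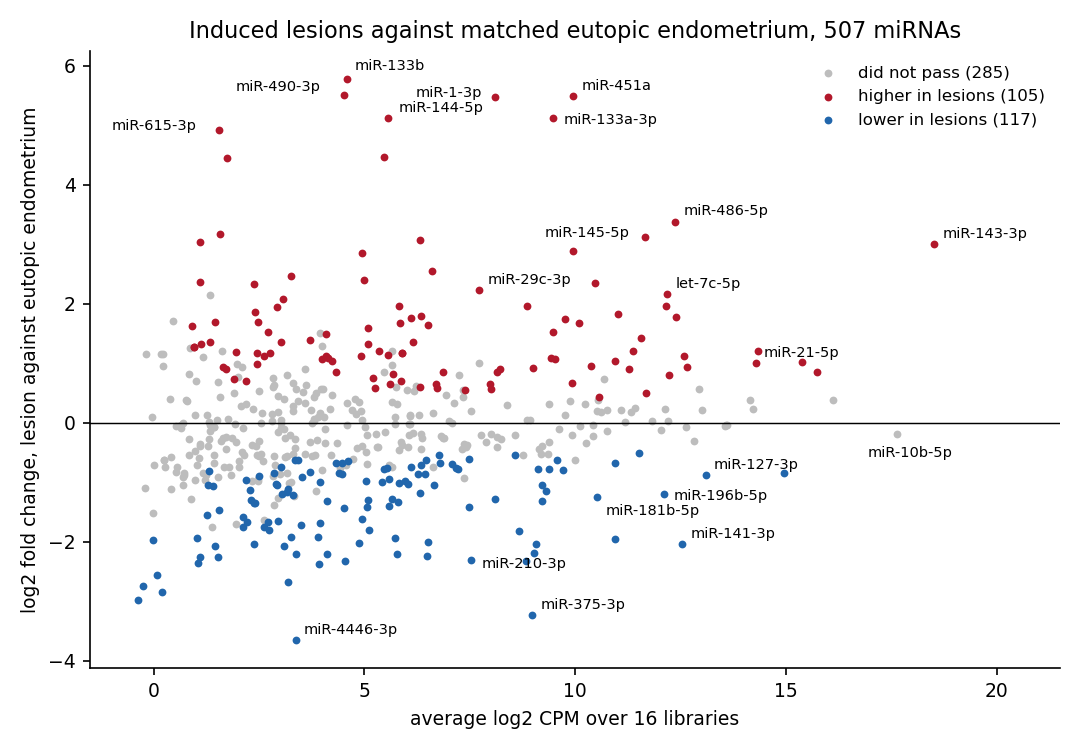
Log2 fold change between lesion and eutopic endometrium (y axis) against the average log2 CPM over the 16 libraries (x axis), 1 point per miRNA; red points were increased in lesions (105), blue points decreased (117) and grey points did not pass the edgeR quasi-likelihood test (285). miR-133b (5.78) and miR-4446-3p (−3.65) are the highest and the lowest point, and miR-143-3p is the most abundant miRNA.

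Lists of miRNAs known for a cell type, a cluster or a stimulus were used to describe these changes. The median over each list can be set beside the median of all 507 miRNAs, which was −0.14. The number called in a list can be set beside the 20.7% higher and 23.1% lower over all miRNAs tested. This comparison only describes the lists, since they and their members were chosen with earlier results of these data known. Up to 4 of the most abundant members of each list are named, besides the largest rises and falls over all miRNAs. miR-203a-3p, miR-486-3p, miR-99a-5p, miR-100-5p, let-7e-5p, miR-30e-3p, miR-431-5p, miR-655-3p, miR-668-3p, miR-196b-3p and the small arms of the paralogs of miR-17-92 were named after their values were seen.

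Epithelial miRNAs were decreased in the lesions. Of 17 tested members, 14 were lower and none higher (median log2 fold change −1.92; 12 lower and a median of −1.62 without PA7539). The miR-200 family, which represses the ZEB factors and thereby keeps cells epithelial, was represented by miR-141-3p, its most abundant member. It stood at 349.9 to 6058 CPM in lesions (median 2591) and at 3636 to 14371 CPM in eutopic endometrium (median 9020), and was decreased with a log2 fold change of −2.04 (SE 0.33, edgeR adjusted p = 0.00119). It was lower in all 8 lesions, although the groups overlapped through the eutopic endometria of PA7258 and PA7539, the lowest of their group, and the lesions of PA7254 and PA7457. miR-375-3p, a miRNA of secretory and glandular epithelium, was at 9.16 to 313 CPM in lesions (median 137) and 339 to 2325 CPM in eutopic endometrium (median 726). These groups did not overlap, and its log2 fold change was −3.24 (SE 0.57, edgeR adjusted p = 0.00165). For miR-200c-3p the lesions (24.4 to 309 CPM, median 174) also lay below every eutopic endometrium (364 to 1390.3 CPM, median 627), with a log2 fold change of −2.33. miR-200a-3p and miR-429, from the other cluster of the family, were lower in all 8 lesions as well (log2 fold change −2.04 and −2.18). miR-182-5p of the miR-183 cluster, which is active in sensory and other epithelia, did the same at 123 to 1912 against 2080 to 3683 CPM.

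The epithelial decrease was of very different size among animals. The summed level of the epithelial list fell from 20792 to 1677 CPM in PA7524 and from 11947 to 833 CPM in PA7539, and only from 15826 to 11174 CPM in PA7254. The lesions of PA7524 and PA7539 held the lowest miR-141-3p, miR-200c-3p, miR-375-3p and miR-182-5p of all 16 libraries. miR-203a-3p, a miRNA of stratified epithelium, was lower in 7 of 8 lesions (log2 fold change −1.27, edgeR adjusted p = 0.0357) and no longer passed without PA7223, PA7524, PA7539 or PA7696 (edgeR adjusted p = 0.0525 to 0.0736). miR-31-5p differed from the rest of the list. It was at 165 to 1020 CPM in lesions and 135 to 1512 CPM in eutopic endometrium, higher in 3 lesions and lower in 5, and did not pass (log2 fold change −0.53, SE 0.47, edgeR adjusted p = 0.363). miR-205-5p, of basal epithelial cells, had at most 25 counts in a library and was not tested.

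Ciliated cell miRNAs, made in multiciliated epithelium, varied between animals more than between tissues. Of 6 tested members of the miR-34b, miR-34c and miR-449 group, miR-449a and miR-449b-5p were lower (median of the list −1.21), where 23.1% of all miRNAs tested were lower. miR-449b-5p stood at 0.260 to 15.9 CPM in lesions (median 3.74) and 2.39 to 61.0 CPM in eutopic endometrium (median 20.2), and only the lesion of PA7254 exceeded its own eutopic endometrium (log2 fold change −2.37, SE 0.64, edgeR adjusted p = 0.0126). The call of miR-449a (log2 fold change −2.02) was lost without PA7255, PA7258, PA7457, PA7524, PA7539 or PA7696 (edgeR adjusted p = 0.0548 to 0.0959), so that 1 member of the list remained. miR-34c-5p was higher in 4 lesions and lower in 4. Its eutopic level was 1030 CPM in PA7696 and 7.65 to 64.5 CPM in the other 7, and its log2 fold change of −0.74 did not pass (SE 0.83, edgeR adjusted p = 0.468). miR-192, miR-194 and miR-215, the p53-linked miRNAs of gut and kidney epithelium, gave no call among 3 tested (median −0.54), 1 lower without PA7254 and 2 lower with library totals.

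**Figure D2:**
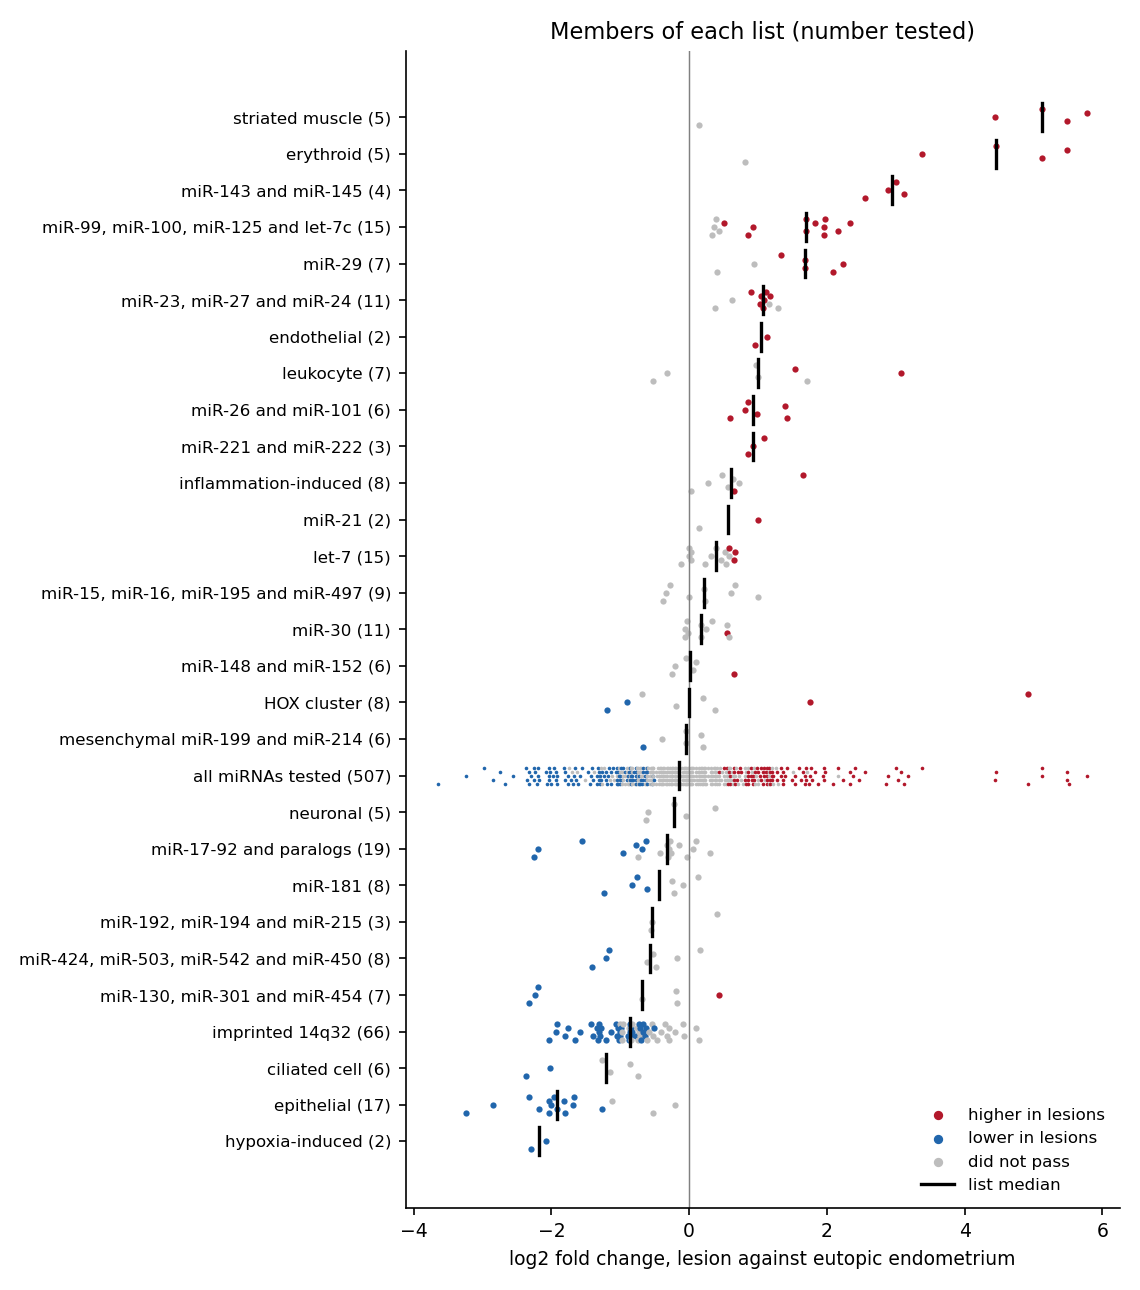
Log2 fold change after TMM scaling of every tested member of each list (x axis), with the number tested in brackets; colours give the edgeR calls and the black bar is the list median, and the line of all 507 miRNAs shows the background. Striated muscle (median 5.12) and erythroid (4.46) miRNAs lie at the upper end, and epithelial (−1.92) and hypoxia-induced (−2.19) miRNAs at the lower end.

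Muscle miRNAs were increased. All 4 arms of miR-143 and miR-145, a cluster of smooth muscle, pericytes and myofibroblasts that holds contractile cells in their differentiated state, were higher in all 8 lesions (median log2 fold change 2.95, and 2.58 without PA7539). miR-145-5p stood at 1138 to 17190 CPM in lesions (median 4331) and 247 to 832 CPM in eutopic endometrium (median 531). The groups did not overlap, and its log2 fold change was 3.13 (SE 0.38, edgeR adjusted p = 2.60e-04). The lowest lesion level was that of PA7254 and the highest that of PA7539, which was also the order for miR-143-3p (175770 and 1737280 CPM; eutopic endometrium 25192 to 87301 CPM; log2 fold change 3.01).

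miRNAs of striated muscle, the myomiRs, rose further. Of 5 tested, 4 were higher (median 5.12, and 4.78 without PA7539). miR-133a-3p, which acts in skeletal and cardiac muscle differentiation, was at 33.9 to 5603 CPM in lesions (median 1054) and 5.44 to 73.1 CPM in eutopic endometrium (median 19.4). Only the lesion of PA7254 lay within the eutopic range, and the log2 fold change was 5.12 (SE 0.70, edgeR adjusted p = 5.73e-04). Its partner on the same transcripts, miR-1-3p, was at 10.8 to 1989 CPM in lesions (median 358) and 1.39 to 28.6 CPM in eutopic endometrium (median 4.24), with a log2 fold change of 5.48 (SE 0.96). miR-133b (1.48 to 183 CPM in lesions, at most 1.31 CPM in eutopic endometrium) had the largest fitted rise, 5.78, but its eutopic values were near or under the floor of 3 counts. After TMM scaling no eutopic endometrium reached 2 CPM of miR-133b. This miRNA thus entered the test largely through the lesions, where it was higher, and its call adds little to the list. The fifth member, miR-499a-5p of slow and cardiac muscle, did not pass (log2 fold change 0.14, edgeR adjusted p = 0.775), and miR-206 and the miR-208 family of skeletal and heart muscle had at most 8 counts in a library and were not tested. The summed striated muscle level was 52.9 to 7810 CPM in lesions (median 1470) and 14.7 to 112 CPM in eutopic endometrium (median 32.5). What muscle, if any, the pieces contained was not tested.

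miRNAs of blood were increased in some lesions more than in others. Of the 5 erythroid miRNAs, 4 were higher (median 4.46; 4.28 without PA7539). miR-451a, which matures through Argonaute 2 instead of Dicer, stood at 142 to 5524 CPM in lesions (median 1442) and 15.9 to 68.8 CPM in eutopic endometrium (median 24.5). These groups did not overlap, and the log2 fold change was 5.49 (SE 0.82, edgeR adjusted p = 0.00104). The lesions of PA7223, PA7254, PA7258 and PA7457 carried 2030.01 to 5524 CPM, and those of the other 4 animals 142 to 854 CPM. miR-144-3p, from the same transcript, was at 14.8 to 304 CPM in lesions (median 58.0) and 0.957 to 7.91 CPM in eutopic endometrium (median 2.54), again without overlap (log2 fold change 4.46, SE 0.72). The abundant miR-486-5p of the same list was higher in 7 of 8 lesions (log2 fold change 3.38, SE 0.91, edgeR adjusted p = 0.0126), from 285 to 1532 CPM in eutopic endometrium to 766 to 29100.3 CPM. Which cells of the lesions held miR-486-5p was not tested.

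Leukocyte miRNAs followed a like split of the animals by their level in lesions, with less evidence over all 8. miR-223-3p, of neutrophils and other myeloid cells, stood at 17.0 to 420.3 CPM in lesions (median 84.9) and 4.38 to 14.5 CPM in eutopic endometrium (median 11.7), without overlap (log2 fold change 3.07, SE 0.68, edgeR adjusted p = 0.00502). It was at 104 to 420.3 CPM in the lesions of PA7223, PA7254, PA7258 and PA7457 and at 17.0 to 66.2 CPM in the others. miR-142-5p, made in all blood cells, was higher in 6 of 8 lesions (log2 fold change 1.53, edgeR adjusted p = 0.0205, and 0.0574 without PA7223). The lymphocyte miRNAs miR-150-5p (log2 fold change 1.004, edgeR adjusted p = 0.0726) and miR-342-3p (−0.32, adjusted p = 0.223) did not pass. Of 7 leukocyte miRNAs tested, 2 were higher (median 1.004; 1 higher, 2 lower and a median of 0.071 with library totals), 4 without PA7539 and 1 without PA7223. Over all miRNAs tested 20.7% were higher. The within-animal median of this list was 1.07 to 2.96 in those 4 animals and −0.28 to −0.003 in the other 4, as the plot of list medians by animal shows. The within-animal median of the erythroid list did not split the animals in this way. It was 5.41 in PA7539, where the leukocyte median was −0.16, and 4.47 in PA7457.

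**Figure D3:**
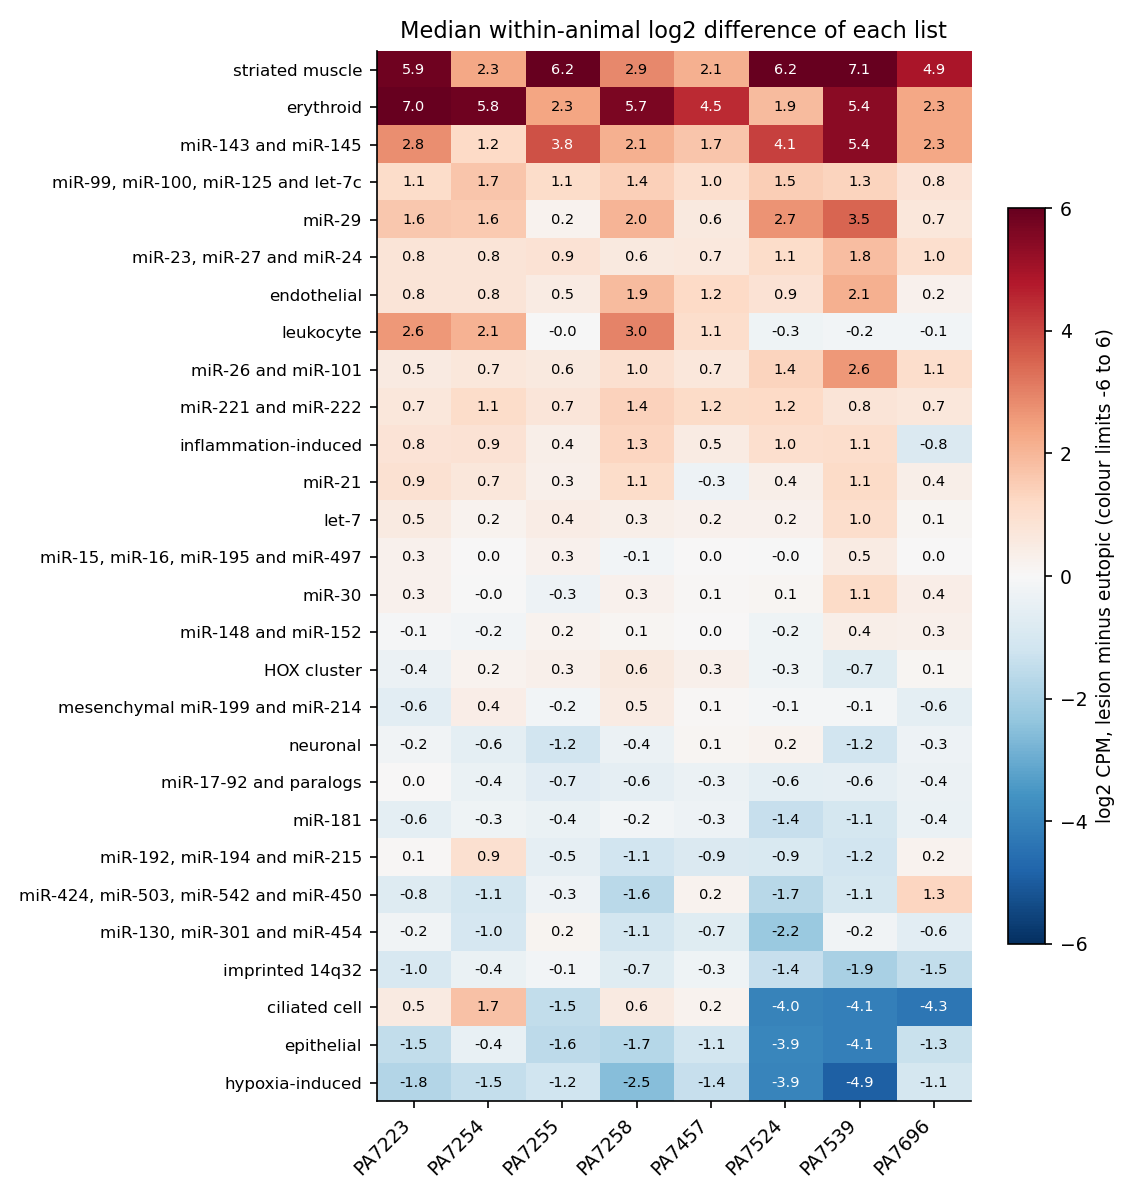
Median over each list's members of the log2 CPM difference, lesion minus eutopic endometrium of the same animal, for each of the 8 animals (columns) and each list (rows); the colour scale is in log2 units and the number is the median. Striated muscle is raised in all 8 animals (lowest 2.14, in PA7457), whereas leukocyte miRNAs are raised in 4 animals and ciliated cell miRNAs are lowered in PA7255, PA7524, PA7539 and PA7696.

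miR-126, encoded in an intron of the endothelial gene EGFL7, was increased on both arms. miR-126-5p stood at 5373 to 12306 CPM in lesions (median 7746) and 1041 to 5465 CPM in eutopic endometrium (median 4195), with a log2 fold change of 1.12 (SE 0.24, edgeR adjusted p = 0.00453). Only the lesion of PA7255 lay below the highest eutopic endometrium, that of PA7696. The rise of miR-126-3p (0.96) was −0.028 with library totals, and that of miR-126-5p was 0.15.

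Among inflammation-induced miRNAs, miR-146a-5p, a target of NF-kB that restrains Toll-like receptor signalling, was increased in all 8 lesions. It was at 40.4 to 310.5 CPM in lesions (median 120) and 24.7 to 65.3 CPM in eutopic endometrium (median 36.5), with a log2 fold change of 1.65 (SE 0.27, edgeR adjusted p = 0.00119). The groups overlapped only through the lesion of PA7255. The CREB-responsive miR-132-3p rose to a smaller extent (log2 fold change 0.66, edgeR adjusted p = 0.0114, and −0.33 with library totals). miR-155-5p, of activated lymphocytes and macrophages, was at 66.6 to 420.2 CPM in lesions and 67.7 to 126 CPM in eutopic endometrium, with the highest value in the lesion of PA7258, and did not pass (log2 fold change 0.47, SE 0.28, edgeR adjusted p = 0.183). Nor did the abundant miR-146b-5p (0.73, edgeR adjusted p = 0.138). Of 8 tested members 2 were higher (median 0.61, and −0.38 with library totals), and 4 without PA7696. The share of 2 in 8 is close to the 20.7% over all miRNAs.

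Among the miRNAs linked to fibrosis, miR-21-5p, which fibroblasts induce on activation, was increased in lesions. It stood at 18848 to 40041 CPM in lesions (median 25806) and 5295 to 17510 CPM in eutopic endometrium (median 14116), without overlap. The log2 fold change was 0.999 (SE 0.22, edgeR adjusted p = 0.00453; 0.85 to 1.15 when 1 animal was left out), and 0.02 with library totals. The smallest difference was that of PA7457, from 17012 to 18848 CPM, and the largest that of PA7539, whose eutopic level was the lowest of its group. miR-21-3p, from the other arm of the hairpin, was at 423 to 1179 CPM in lesions and 386 to 1265 CPM in eutopic endometrium, higher in 5 of 8 lesions, and did not pass (log2 fold change 0.14, SE 0.19, edgeR adjusted p = 0.554).

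**Figure D4:**
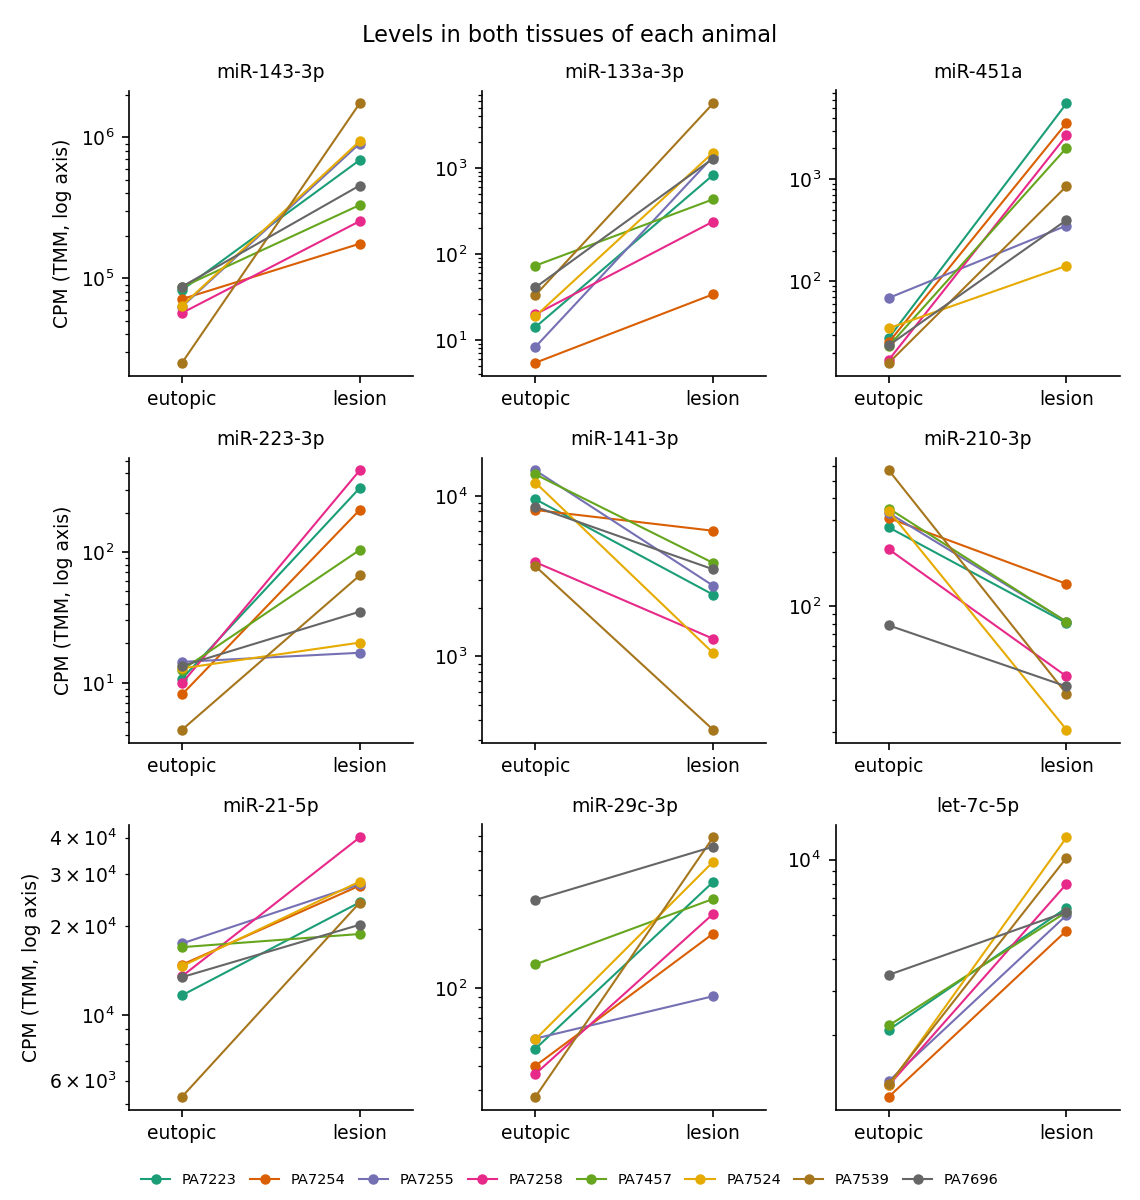
CPM after TMM scaling (y axes, logarithmic) of 9 miRNAs in the eutopic endometrium and the lesion of each animal, joined by a line per animal. miR-143-3p, miR-133a-3p, miR-451a, miR-223-3p, miR-21-5p, miR-29c-3p and let-7c-5p rise and miR-141-3p and miR-210-3p fall in all 8 animals, with slopes that differ between animals.

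The miR-29 family, which represses collagen and other matrix transcripts, was increased. Of 7 arms tested, 5 were higher (median 1.68; 1.40 without PA7539), and 3 with library totals (median 0.71). miR-29c-3p stood at 90.6 to 589.8 CPM in lesions (median 317) and 27.7 to 282 CPM in eutopic endometrium (median 51.7), with a log2 fold change of 2.23 (SE 0.41, edgeR adjusted p = 0.00205). It rose in all 8 animals, and the overlap came from the eutopic endometria of PA7457 and PA7696, which were the highest of their group. miR-29a-3p, the most abundant member, rose from 226 to 1531 CPM (median 437) to 883 to 2472 CPM (median 1554), a log2 fold change of 1.69 (SE 0.29, edgeR adjusted p = 0.00137), and the lesion of PA7255 was its lowest, as for miR-29c-3p and miR-29b-3p (1.68).

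The miR-199 and miR-214 miRNAs of mesenchymal cells were largely level after TMM scaling. Of 6 tested, 1 was lower (median −0.04), whereas with library totals all 6 were lower (median −1.04). miR-199a-3p stood at 7587 to 18487 CPM in lesions and 5908 to 17710 CPM in eutopic endometrium and did not pass (log2 fold change −0.04, SE 0.19, edgeR adjusted p = 0.881). The exception was miR-199b-5p, lower in all 8 lesions with a log2 fold change of −0.67 (SE 0.19, edgeR adjusted p = 0.0146).

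The 3 paralogous clusters of miR-99, miR-100, miR-125 and let-7c rose with little spread between animals. These clusters hold miRNAs that dampen IGF and mTOR signalling and that mark differentiated mesenchyme. Of 15 arms tested, 11 were higher and none lower (median 1.69; 1.48 without PA7539), against 6 higher and 1 lower with library totals (median 0.71). miR-125b-5p stood at 4831 to 11156 CPM in lesions (median 6606) and 1318 to 2913 CPM in eutopic endometrium (median 1718), without overlap (log2 fold change 1.96, SE 0.20, edgeR adjusted p = 1.69e-04). let-7c-5p was at 5207 to 12253 CPM (median 6302) against 1133 to 3471 CPM (median 1293), also without overlap (log2 fold change 2.16, SE 0.27). miR-99a-5p (2.34) and miR-100-5p (1.83) rose with them. The members of the third cluster, miR-99b-5p (0.51), let-7e-5p (0.38, did not pass) and miR-125a-5p (0.93), differed less between the tissues. With library totals miR-99b-5p (−0.46), let-7e-5p (−0.60) and miR-125a-5p (−0.030) turned below 0 and the other members named stayed above it, and miR-99b-5p lost its call without PA7254 (adjusted p = 0.0541) or PA7524 (0.0522).

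The remaining let-7 miRNAs, which hold back growth genes such as LIN28 and HMGA2, moved little after TMM scaling. Of 15 arms tested, 3 were higher (median 0.39; 8 lower and a median of −0.57 with library totals), none without PA7223 and 1 without PA7524. let-7a-5p, at 16565 to 23155 CPM in lesions and 11727 to 23203 CPM in eutopic endometrium, did not pass (log2 fold change 0.23, SE 0.15, edgeR adjusted p = 0.210). The miR-30 family gave 1 higher arm of 11 (median 0.18; 6 lower and a median of −0.81 with library totals), miR-30e-3p (0.55, and −0.43 with library totals), whose call was lost without any animal but PA7254 (edgeR adjusted p = 0.0558 to 0.0862). Without PA7255 there were 2 higher arms. The cell cycle miRNAs miR-15, miR-16, miR-195 and miR-497 gave no call among 9 tested (median 0.22; 6 lower and a median of −0.77 with library totals), and 1 higher without PA7524 or without PA7696. miR-16-5p stood at 2996 to 7015 CPM in lesions and 2387 to 5233 CPM in eutopic endometrium (log2 fold change 0.23, edgeR adjusted p = 0.250).

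Several clusters of broadly expressed miRNAs rose to an extent close to the shift between the scalings, so that with library totals most of their fold changes were near 0. Of the miR-23, miR-27 and miR-24 clusters, 7 of 11 arms were higher (median 1.07, and 0.08 with library totals). miR-24-3p stood at 731 to 1491 CPM in lesions (median 965) and 343 to 576 CPM in eutopic endometrium (median 499), without overlap (log2 fold change 1.07, SE 0.17, edgeR adjusted p = 0.00119). All 6 arms of miR-26 and miR-101, which repress EZH2, were higher (median 0.92; 0.77 without PA7539, and −0.045 with library totals). The number was 5 without PA7223, PA7255, PA7258, PA7524 or PA7539. For miR-101-3p the levels were 2347 to 7201 CPM in lesions (median 4156) and 361 to 2996 CPM in eutopic endometrium (median 1633), with a log2 fold change of 1.42 (SE 0.33, 0.49 with library totals). All 3 arms tested of miR-221 and miR-222, which repress the cell cycle inhibitor p27, were higher (median 0.92, and −0.052 with library totals). miR-221-3p was at 456 to 984 CPM in lesions (median 659) and 240.03 to 498 CPM in eutopic endometrium (median 338), with similar differences in all 8 animals (log2 fold change 0.92, SE 0.14, edgeR adjusted p = 0.00117, and −0.052 with library totals). miR-34a-5p, a p53 target, rose in all 8 animals, from 13.5 to 47.7 CPM (median 28.2) to 37.9 to 89.1 CPM (median 63.6), with a log2 fold change of 1.14 (SE 0.23, edgeR adjusted p = 0.00320).

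Both arms of miR-210, the miRNA most directly induced by hypoxia through HIF, were decreased (median −2.19). Without PA7539 the median was −1.86 and both arms were still lower. miR-210-3p stood at 20.6 to 133 CPM in lesions (median 60.7) and 78.2 to 569 CPM in eutopic endometrium (median 319), lower in all 8 lesions, with a log2 fold change of −2.30 (SE 0.37, edgeR adjusted p = 0.00119). The groups overlapped through the eutopic endometrium of PA7696 alone. miR-210-5p was at 0.549 to 5.22 CPM in lesions and 5.46 to 44.2 CPM in eutopic endometrium, without overlap (log2 fold change −2.08, SE 0.55, edgeR adjusted p = 0.0119).

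The miR-17-92 cluster and its paralogs, which drive proliferation, fell in part after TMM scaling. Of 19 arms tested, 7 were lower and none higher (median −0.32), whereas with library totals all 19 were lower (median −1.30). The arms that fell belong to the paralogous clusters. miR-363-3p, miR-20b-5p and miR-106a-5p come from the X-linked cluster, and both miR-106b arms, miR-93-3p and miR-25-5p from the cluster within MCM7. miR-363-3p stood at 10.4 to 38.4 CPM in lesions (median 19.4) and 55.8 to 125 CPM in eutopic endometrium (median 86.5), without overlap (log2 fold change −2.20, SE 0.26, edgeR adjusted p = 2.60e-04). The members of miR-17-92 itself did not pass after TMM scaling, among them its most abundant arm miR-92a-3p at 4296 to 7883 CPM in lesions and 5288 to 13599.8 CPM in eutopic endometrium (log2 fold change −0.30, SE 0.17, edgeR adjusted p = 0.151). miR-20b-5p and miR-106a-5p did not exceed 5.09 CPM in any library. The calls of miR-93-3p (log2 fold change −0.62) and miR-25-5p (−0.97) were not stable, since the first was lost without any animal but PA7255 (edgeR adjusted p = 0.0588 to 0.113) and the second without PA7223, PA7258 or PA7696 (0.0556 to 0.0656).

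Of the X-linked miR-424 and miR-503 cluster, which acts on cyclins, 3 of 8 arms were lower (median −0.57), and 7 with library totals (median −1.55). Over all miRNAs tested 23.1% were lower. After TMM scaling 2 arms were lower without PA7223, PA7254, PA7258, PA7524 or PA7539, 3 without PA7255 or PA7457 and 4 without PA7696. miR-424-3p was lower in all 8 lesions, at 31.0 to 296 CPM (median 66.0) against 66.9 to 685 CPM (median 231), with a log2 fold change of −1.42 (SE 0.32, edgeR adjusted p = 0.00502). The abundant arm miR-424-5p reached 3022 CPM in the lesion of PA7696, against 223 to 1383 CPM in the other lesions and 375 to 1557 CPM in eutopic endometrium, and did not pass (log2 fold change −0.62, SE 0.37, edgeR adjusted p = 0.186).

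The imprinted region that lies at 14q32 in the human genome (DLK1-DIO3) is expressed from the maternal chromosome in stroma, placenta and brain and its miRNAs form the longest of the lists. Of 66 arms tested, 40 were lower and none higher (median −0.86; 34 lower and a median of −0.72 without PA7539), and 64 were lower with library totals (median −1.81). The number of 40 fell to 23 without PA7524 and 26 without PA7223 and was 43 without PA7255. miR-127-3p, the most abundant, stood at 1704 to 14441 CPM in lesions (median 6627) and 3969 to 14203 CPM in eutopic endometrium (median 11818), lower in 7 of 8 lesions, with a log2 fold change of −0.87 (SE 0.26, edgeR adjusted p = 0.0189). In PA7255 both tissues were nearly equal, and without PA7524 its adjusted p was 0.0539. miR-410-3p was at 81.4 to 823 CPM in lesions (median 401) and 313 to 1031 CPM in eutopic endometrium (median 903), lower in all 8 lesions (log2 fold change −1.31, SE 0.31, edgeR adjusted p = 0.00611). The fold changes of this region ran from −2.04 for miR-668-3p to 0.14 for miR-655-3p. miR-431-5p, at 2.80 to 69.1 CPM in lesions (median 17.9) and 27.6 to 131 CPM in eutopic endometrium (median 82.5), fell by 1.94 (SE 0.34, edgeR adjusted p = 0.00153), whereas miR-381-3p, at 349 to 1098 and 552 to 1026 CPM, gave −0.10 (SE 0.19, edgeR adjusted p = 0.690). The summed level was lower in all 8 lesions, from 25228 to 24906 CPM in PA7255 and from 17699 to 4956 CPM in PA7539. The eutopic endometrium of PA7696 had the lowest sum of its group, 8833 CPM.

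Of 8 miRNAs tested that are encoded within the HOX clusters, 2 were higher and 2 lower (median −0.000223; 1 higher and 4 lower with library totals), close to the 20.7% and 23.1% over all miRNAs. miR-196b-5p, of the HOXA cluster, stood at 1015 to 4455 CPM in lesions (median 2859) and 3152 to 7738 CPM in eutopic endometrium (median 6184) and fell in all 8 animals (log2 fold change −1.19, SE 0.19, edgeR adjusted p = 0.00117). miR-196a-5p, of the HOXB and HOXC clusters, rose in 7 of 8, from 8.57 to 31.9 CPM to 16.4 to 330.01 CPM, with the highest levels in the lesions of PA7254 and PA7457 (log2 fold change 1.76, SE 0.50, edgeR adjusted p = 0.0161). miR-615-3p, in an intron of HOXC5, was at 1.498 to 8.48 CPM in lesions and at most 0.622 CPM in eutopic endometrium, where it had at most 3 counts. The groups did not overlap, but this miRNA reached the limit of 2 CPM only in lesions. It thus entered the test through the group where it was higher, and its call adds little to the list. The abundant miR-10a-5p (log2 fold change 0.38, SE 0.21) and miR-10b-5p (−0.19, SE 0.23) did not pass after TMM scaling (edgeR adjusted p = 0.154 and 0.494). The second lower arm was miR-196b-3p (−0.91), and the number of lower arms was 1 without PA7254, PA7258, PA7524 or PA7696 and 3 without PA7255.

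Among smaller families, 4 of 8 miR-181 arms were lower (median −0.43), where 23.1% of all miRNAs tested were lower. With library totals the number was 7 (median −1.41). After TMM scaling it was 3 without any animal but PA7254 and PA7258. The most abundant, miR-181a-5p, fell in all 8 animals, from 20732 to 67994 CPM (median 41849.8) to 14625 to 32820.2 CPM (median 21027), with its highest eutopic level in PA7539 (log2 fold change −0.84, SE 0.22, edgeR adjusted p = 0.0125). miR-181b-5p, which acts in lymphoid and endothelial cells, stood at 665 to 1105 CPM in lesions (median 858) and 1426 to 3070.05 CPM in eutopic endometrium (median 1993), without overlap (log2 fold change −1.24, SE 0.20, edgeR adjusted p = 0.00117). Of 7 arms of miR-130, miR-301 and miR-454, which share a seed on their 3p arms, miR-130b-3p, miR-130b-5p and miR-301b-3p were lower and miR-130a-3p was higher, and 6 were lower with library totals. miR-130b-3p fell from 82.2 to 215 CPM (median 144) to 6.79 to 108 CPM (median 30.1), a log2 fold change of −2.23 (SE 0.40). miR-130a-3p stood at 1258 to 2175 against 982 to 1742 CPM and was higher in all 8 lesions (0.43, SE 0.14, edgeR adjusted p = 0.0284), but turned to −0.54 with library totals and did not pass without PA7223, PA7255, PA7258 or PA7524 (edgeR adjusted p = 0.0501 to 0.0672). Of 6 miR-148 and miR-152 arms only miR-152-3p was higher (0.66, and −0.33 with library totals, where 5 of the 6 were lower). Neuronal miRNAs gave no call among 5 tested (median −0.23), none when 1 animal was left out, and 3 lower with library totals. Of 3 gonadal miRNAs miR-513a-5p and miR-513b-5p were lower, at no more than 5.18 CPM in any library, with 1 such call without PA7254, PA7255, PA7524 or PA7696. Without PA7258 or without PA7539 no gonadal miRNA reached the limit of 2 CPM in 2 libraries, so none was tested. The list sum was 8.02 and 13.9 CPM in the eutopic endometria of PA7258 and PA7539. Both calls thus concern miRNAs that entered the test through eutopic libraries where they were high. No member of the placental C19MC, liver or pancreatic lists was abundant enough to be tested.

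The lists left 232 of the 507 miRNAs aside, of which 45 were higher and 37 lower. The miRNAs outside the lists that are named here were chosen after their values were seen, apart from miR-338-3p, miR-490-3p and miR-4446-3p. miR-338-3p, which lies in an intron of AATK, stood at 22.9 to 98.4 CPM in lesions (median 47.0) and 3.59 to 13.1 CPM in eutopic endometrium (median 6.37), without overlap (log2 fold change 2.86, SE 0.32, edgeR adjusted p = 2.60e-04). Also without overlap, miR-664a-3p, encoded within a small nucleolar RNA, was at 83.6 to 200.1 CPM in lesions and 23.5 to 66.3 CPM in eutopic endometrium (log2 fold change 1.79, SE 0.17). miR-224-5p (2.47) and miR-452-5p (2.41), neighbours in an intron of GABRE, both rose in all 8 animals. The abundant miR-22-3p rose in 7 of 8, from a median of 11437 to 27358 CPM (log2 fold change 1.22), and miR-28-3p, in an intron of LPP, in all 8, from a median of 2296 to 5508 CPM (1.77). miR-378a-3p, in an intron of the metabolic coactivator gene PPARGC1B, reached 19026 CPM in the PA7539 lesion and was at 1628 to 2405 CPM in the other lesions and at 902 to 1579 CPM in eutopic endometrium (log2 fold change 1.21, SE 0.34, edgeR adjusted p = 0.0157, and 0.91 without that animal).

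miR-490-3p, in an intron of the muscarinic receptor gene CHRM2, was also highest in that lesion. It stood at 345 CPM in PA7539 and 0.250 to 11.7 CPM in the other lesions, and at most 0.622 CPM in eutopic endometrium. This miRNA thus entered the test through the lesions alone. Its fitted log2 fold change was 5.51, 4.01 without PA7539 and 6.71 without PA7696 (edgeR adjusted p = 0.00165, 0.00134 and 0.00205). The largest fall was that of miR-4446-3p, from 1.45 to 76.7 CPM in eutopic endometrium to at most 2.42 CPM in lesions (log2 fold change −3.65, SE 0.58, edgeR adjusted p = 0.00119), and its highest value was the eutopic endometrium of PA7539. miR-4446-3p thus entered the test largely through the eutopic endometria, where it was higher. Other falls outside the lists were those of miR-383-5p (−2.67, lower in 7 of 8), miR-708-5p (−1.17, lower in 7 of 8) and miR-188-5p (−1.61, lower in all 8).

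To compare closely related miRNAs without any scaling, the log2 ratio of paralogs that share a number and an arm was compared between both tissues for 133 pairs, with limma and the animal as a block. The ratio differed in 35 pairs, 26.3% of those tested, of which 13 contained let-7c. How reads that match several paralogs were counted is not given in the sources used here, and pairs that share a member are not independent. The 133 pairs include some that could hardly differ. The members of miR-548c-5p and miR-548o-5p had equal counts in every library, and those of miR-365a-3p and miR-365b-3p nearly so. In 3 pairs both members were called in opposite directions. miR-130a-3p gained 2.71 log2 units on miR-130b-3p (SE 0.35, limma adjusted p = 1.10e-04), miR-196a-5p gained 2.93 on miR-196b-5p (SE 0.45, limma adjusted p = 3.89e-04), and each gain was seen in all 8 animals. The ratio of miR-135a-5p (log2 fold change −1.44) to miR-135b-5p (1.07) differed by −2.48 (SE 0.52, limma adjusted p = 0.00356, lower in 7 of 8 animals). The edgeR call of miR-135a-5p was lost without PA7223 or PA7524 (adjusted p = 0.0582 and 0.0588), and that of miR-135b-5p without any animal but PA7457 and PA7539 (0.0575 to 0.0872).

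Other paralogs moved in 1 direction to a different extent or 1 of them stayed level. let-7c-5p gained 1.75 to 2.27 log2 units on let-7a-5p, let-7b-5p, let-7d-5p, let-7e-5p, let-7f-5p, let-7g-5p and let-7i-5p, in all 8 animals each. miR-99a-5p gained 1.84 on miR-99b-5p (SE 0.22), and the ratio of miR-125a-5p to miR-125b-5p differed by −1.03 (SE 0.15). miR-199a-5p gained 0.87 on miR-199b-5p (SE 0.16, limma adjusted p = 0.00149), and the ratio of miR-181b-5p to miR-181c-5p differed by −1.02 (SE 0.18, limma adjusted p = 0.00133), both in all 8 animals. In contrast, the ratio of miR-26a-5p to miR-26b-5p differed by 0.030 log2 units (95% interval −0.38 to 0.44) and that of miR-27a-3p to miR-27b-3p by 0.0079 (−0.44 to 0.45), and neither passed limma's test.

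The 2 arms of a hairpin come from 1 precursor, and their ratio is likewise free of the scaling. Of 149 hairpins with both arms measured, 134 had arms that differed between the tissues in the same direction. Both arms were called in 43 hairpins, always in the same direction. The ratio of 5p to 3p differed in 13 hairpins, 8.72% of those tested by limma. The number was 31 without PA7539 and 9 to 13 without any other animal.

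For mir-21 the ratio of 5p to 3p was higher in the lesion of all 8 animals. It was 4.48 to 5.58 log2 units in lesions and 2.62 to 5.12 in eutopic endometrium, with the lowest value in the eutopic endometrium of PA7539, and rose by 0.87 (SE 0.16, limma adjusted p = 5.42e-04). The largest change was that of mir-486-2 (2.60, SE 0.32, limma adjusted p = 3.80e-06, 8 of 8 animals), in which miR-486-5p rose and miR-486-3p did not pass. Its 3p arm had as few as 6 counts in a library. In mir-574 (−0.80, SE 0.18) miR-574-3p rose (0.91, and −0.059 with library totals) and miR-574-5p did not pass. In mir-199b (−0.62, SE 0.12) miR-199b-5p fell and miR-199b-3p did not. The counts of miR-199b-3p are nearly those of miR-199a-3p (mean log2 ratio of miR-199a-3p to miR-199b-3p 0.015 in lesions and 0.011 in eutopic endometrium). The mir-199b ratio can therefore include reads of another hairpin. In mir-361 (0.80, SE 0.18) and mir-195 (0.59, SE 0.18) neither arm passed alone.

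Other ratios rest on fewer counts. Those of mir-191 (1.39), mir-497 (−1.38), mir-188 (−1.12), mir-483 (−0.98) and mir-431 (−0.97) involve an arm with 2 to 7 counts in its lowest library. The call of mir-497 was lost without PA7223, PA7524 or PA7696 (limma adjusted p = 0.0883, 0.0842 and 0.0698), and that of mir-431 without any animal but PA7258 and PA7539 (0.0561 to 0.1203). Those of mir-125b-1 (1.12) and mir-376a-1 (−1.10) involve an arm that another hairpin also encodes.

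**Figure D5:**
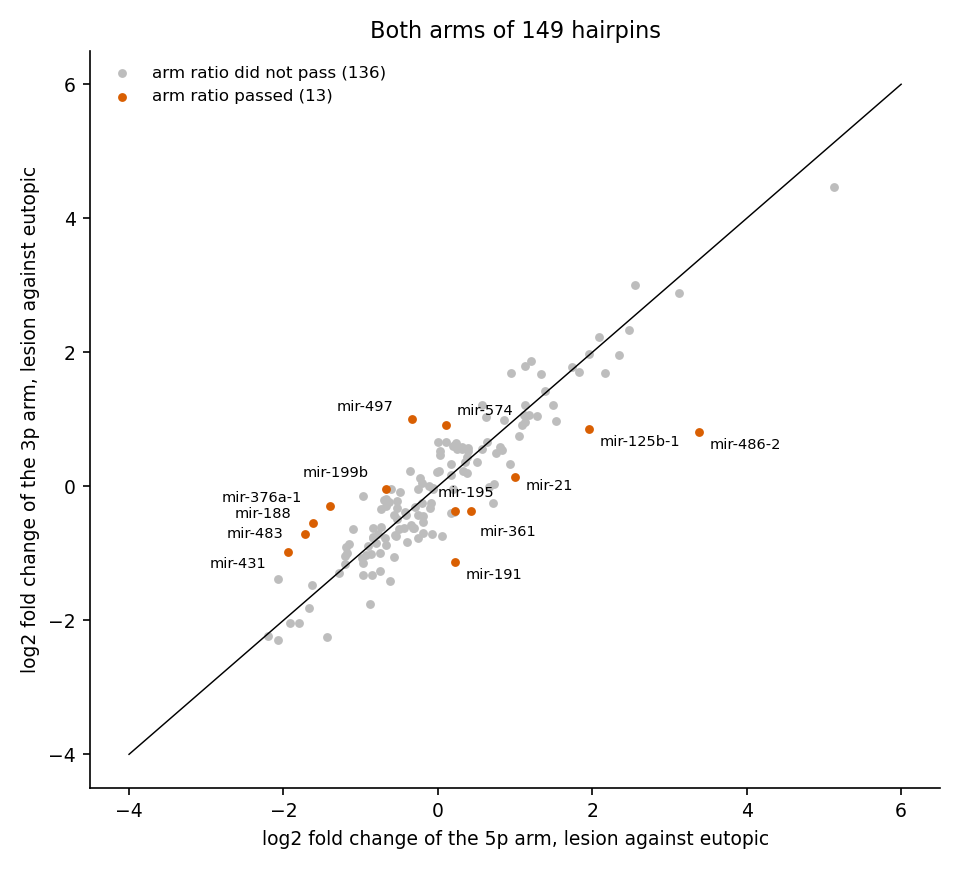
Log2 fold change of the 3p arm (y axis) against that of the 5p arm (x axis) between lesion and eutopic endometrium for 149 hairpins; the line marks equal change and orange points are the 13 hairpins whose 5p to 3p ratio passed limma's test. Most hairpins lie along the line, and mir-486-2 and mir-21 lie below it, with a larger rise of the 5p arm.

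Whether the lesion effect differed between induced and spontaneous disease was tested as an interaction over all 24 libraries. None of 527 miRNAs passed by edgeR's quasi-likelihood test (smallest adjusted p = 0.768), 16 had an unadjusted p under 0.05, and edgeR-robust and DESeq2 called 3 each. The median standard error of the difference was 0.58 log2 units. Much larger differences did not pass either, since the rise of miR-144-3p was 4.07 log2 units larger in induced disease (SE 1.03, edgeR adjusted p = 0.768) and that of miR-451a 3.39 (SE 1.01, edgeR adjusted p = 0.946). No change above is shown to be particular to induced lesions, or to be shared by both kinds of disease.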

How the data were processed

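Total RNA of lesion and eutopic endometrium was sequenced with the Illumina TruSeq small RNA preparation. The authors trimmed reads with Trim Galore 0.3.3 and counted them against human miRBase miRNAs with miRDeep2, and they deposited raw counts per mature miRNA and precursor. Baboon miRNAs with another sequence than the human one may be missed, and the handling of reads matching several miRNAs is not given in the sources used here. Of the 2888 rows, the precursor with the highest total stood for each of 2656 mature miRNAs (168 have several). A miRNA entered the test if 2 or more of the 16 libraries reached 2 CPM. Tests were run in R 4.3.3 with edgeR 4.0.16 (TMM, robust quasi-likelihood fit, animal as a block, Benjamini-Hochberg, threshold 0.05). SE is the log2 fold change divided by the square root of F. Ratios of arms and of paralogs were tested with limma 3.58.1 on log2 of counts plus 0.5, for pairs with at least 10 counts of both members in at least 8 libraries. DESeq2 1.42.0, edgeR-robust, other scalings and filters, no block and leaving out each animal were alternatives. The paralog comparison was added after the data were seen.

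Pairs come from the animal codes. After subtraction of the group means, the values of both tissues of an animal correlated at −0.03 to 0.41 (median 0.17), above 0.1 in 5 of 8 animals. No 2 libraries of a tissue were alike (chi-square per degree of freedom of at least 134.6 in 56 pairs). Each animal gave 1 library per tissue, so p-values measure the spread between these animals. Library totals were 2592999 to 7573913 counts, and the floors cover counting error only. The intervals of the ratios come from limma with the animal as a block, and measure the spread between these animals. The script was tested on simulated data.

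Named miRNAs are the 12 largest rises and 12 largest falls among called miRNAs whose average log2 CPM was 3 or more and whose direction was the same in all 8 animals, the 5 most abundant, both miR-21 arms, up to 4 members of each list with any called against its median, and the 8 largest calls among hairpins. Others were named after their values were seen. The members and the 33 lists were chosen with earlier results of these data known.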

Additional observations from a re-analysis of the deposited data

Results flagged for a closer look

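In 236 groups of 8 values, 30 had a highest or lowest sample far from the other 7. Dixon's criterion at the 95% level was applied to the logarithm of CPM. Chance alone gives about 1 in 20 such groups, but the groups share libraries and are not independent. The values below are CPM after TMM scaling, without the logarithm, and the range of the other 7 animals follows each.

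Most were the eutopic endometrium of PA7539. It was low for miR-143-3p (25192, others 56780 to 87301), miR-145-3p (54.6, others 136 to 259), miR-27b-3p (13109, others 25464 to 33942) and miR-21-5p (5295, others 11686 to 17510). Both arms of miR-126 were low there (miR-126-5p 1041, others 3311 to 5465; miR-126-3p 402, others 784 to 1345), as were miR-199a-3p (5908, others 11141 to 17710) and miR-199b-3p (5865, others 11037 to 17495), which largely share reads. The same holds for miR-19b-3p (115, others 293 to 373), miR-424-5p (375, others 836 to 1557), miR-450b-5p (20.1, others 51.7 to 92.4), miR-542-3p (10.96, others 28.7 to 44.7), miR-195-5p (762, others 1491 to 2410) and miR-196b-5p (3152, others 5204 to 7738). Members of let-7 and other abundant families were low as well: let-7f-5p (5087, others 14238 to 26772), let-7i-5p (1806, others 3827 to 6694), let-7g-5p (2292, others 3900 to 5222), miR-30e-5p (1409, others 2241 to 2927), miR-26b-5p (1465, others 3442 to 4529), miR-101-3p (361, others 1384 to 2996) and miR-148a-3p (4888, others 11425 to 16003). In this library miR-210-5p was high (44.2, others 5.46 to 13.0). The lesion of the same animal was high for miR-30c-5p (3085, others 1256 to 1674).

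The eutopic endometrium of PA7696 was high for miR-34c-5p (1030, others 7.65 to 64.5), miR-34b-5p (159, others 0.957 to 9.75), miR-192-5p (1165, others 265 to 493) and miR-194-5p (43.5, others 11.7 to 21.3). Its lesion was high for miR-450b-5p (280, others 27.4 to 61.4) and miR-542-3p (104, others 9.60 to 27.5). The lesion of PA7524 was high for miR-26b-3p (55.7, others 40.8 to 47.2).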

How the results depend on the processing

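Scaling was the choice that mattered most. With library totals in place of TMM factors, 33 miRNAs were higher and 294 lower, and 23 log2 fold changes called under either scaling, of miRNAs chosen by the naming rule, turned below 0: miR-26a-5p (−0.13), miR-21-3p (−0.85), miR-126-3p (−0.028), miR-132-3p (−0.33), miR-199a-5p (−0.78), miR-125a-5p (−0.030), miR-99b-5p (−0.46), miR-19b-3p (−0.68), miR-16-5p (−0.76), miR-195-5p (−0.77), let-7a-5p (−0.76), let-7f-5p (−0.57), let-7i-5p (−0.95), miR-30e-5p (−0.72), miR-30c-5p (−0.81), miR-23b-3p (−0.090), miR-26b-5p (−0.16), miR-26b-3p (−0.39), miR-221-3p (−0.052), miR-222-3p (−0.12), miR-148b-3p (−0.93), miR-152-3p (−0.33) and miR-130a-3p (−0.54). Others turned as well, among them let-7e-5p (−0.60), miR-30e-3p (−0.43) and miR-574-3p (−0.059). By construction this setting does not correct for the share taken by miR-143-3p. DESeq2's factors gave 103 higher and 120 lower, a table without miR-143-3p 102 and 125, and DESeq2's own test 116 and 136. Without the replicate block, 116 were higher and 86 lower, 182 of them the same calls as with the animal as a block. Leaving out 1 animal gave 89 to 109 higher and 81 to 111 lower.

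The number of hairpins with a changed arm ratio was 21 with a pseudocount of 2 and 9 to 31 when 1 animal was left out. The number of paralog pairs was 20 of 78 when at least 50 counts of both members were required in all 16 libraries, where fewer pairs are tested, and 26 to 44 when 1 animal was left out. The interaction with the kind of disease gave 3 calls with DESeq2 and 3 with edgeR-robust. The share of miR-26a-5p differed by 0.0947 points when precursors were summed, in place of −0.25, and passed under neither. At 3 counts the floor of 0.301 to 1.02 CPM limits the fold changes of miR-133b, miR-615-3p, miR-490-3p and miR-20b-5p.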
